A study of Mus musculus with 8 samples.

Results

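The enzymes and receptors that turn arachidonic acid into prostaglandins and leukotrienes were followed in sorted mouse microglia as 10 named genes, out of 55573 genes listed in the count matrix. The genes were *Ptgs1*, *Ptgs2*, *Hpgds*, *Tbxas1*, *Hpgd*, *Alox5*, *Alox5ap*, *Ltc4s*, *Lta4h* and *Ptger4*, chosen by name, and all 10 had enough counts to be tested. RNA was sequenced from microglia of 4 *Smad2/3 fl/fl;Cx3cr1Cre* mutants and 4 controls, all aged 60 postnatal days (P60), with 1 library per mouse, to ask what microglia express when the TGFβ signal transducers SMAD2 and SMAD3 are deleted. *Cx3cr1Cre* is active in microglia and also in other macrophages, so the deletion was not limited to microglia. The sample labels call the controls wild-type, whereas the study's methods state that its breeding gave no true wild types and that controls generally carried 1 floxed allele together with Cre. The methods point to a different deposit for this genotype, so their description was applied to these libraries only because genotype and cell type match. By that description, mice were on a C57BL6/J background, and cells were taken from a Percoll gradient and gated on the Cre-dependent TdTomato reporter, CD45 and CD11b.

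Arachidonic acid is cut from membrane lipids by phospholipases and by lipases acting on monoacylglycerol. Cyclooxygenases then convert it to prostaglandin H, which dedicated synthases turn into prostaglandin D, prostaglandin E, prostacyclin or thromboxane. The enzyme 15-hydroxyprostaglandin dehydrogenase inactivates some of these products, prostaglandin E among them. In the other branch, 5-lipoxygenase and its activating protein make leukotriene A, from which separate enzymes form leukotriene B or the cysteinyl leukotrienes. Microglia are known as a major brain source of cyclooxygenase-1 and of hematopoietic prostaglandin D synthase.

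The libraries held between 35639502 and 41946479 counts. *Smad3* was 39.5 to 56.9 CPM (counts per 1000000 library counts, scaled by TMM) in controls and 9.61 to 17.5 CPM in mutant mice 1, 2 and 4, but 35.1 CPM in mutant 3. *Smad2* differed by -0.34 on the log2 scale (adjusted p = 0.34), and the gene counts do not show whether its floxed exons were missing. *Xist* was detected at 99.5 to 183 CPM in the controls and at 0.562 CPM or less in the mutants, whereas the Y-linked *Ddx3y* was at 9.74 to 59.8 CPM in the mutants, so genotype and sex cannot be told apart in any result here. Of 10 microglial markers, 9 were lower in mutants and their summed level went from 29885 to 45282 CPM in controls to 4707 to 7126 CPM in mutants, with *P2ry12*, *Tmem119* and *Sall1* among those that fell. Of 8 border macrophage markers, 6 were higher, and their sum went from 54.7 to 102 CPM up to 1861 to 2946 CPM. In such bulk samples fewer cells of a type and less RNA per cell cannot be told apart, and the part that these marker shifts play in the results below was not tested.

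In mutants, *Ptgs1*, *Hpgds*, *Alox5ap* and *Ltc4s* fell and *Hpgd* and *Ptger4* rose, while *Ptgs2*, *Tbxas1*, *Alox5* and *Lta4h* did not pass the test. These 6 calls among 10 genes stand beside a background of 12.3% of the 20153 tested genes, of which 4.36% were higher and 7.97% lower in mutants. Calls were made with edgeR at an adjusted p-value under 0.05 over all tested genes. The median log2 fold change of the 10 genes was -0.71, against 0.011 for all tested genes. Mutant and control libraries did not overlap for 6 of the 10 genes, compared to 22.1% of tested genes. The 10 genes were chosen with earlier results of these data known, so these shares are descriptions and not a test.

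**Figure D1:**
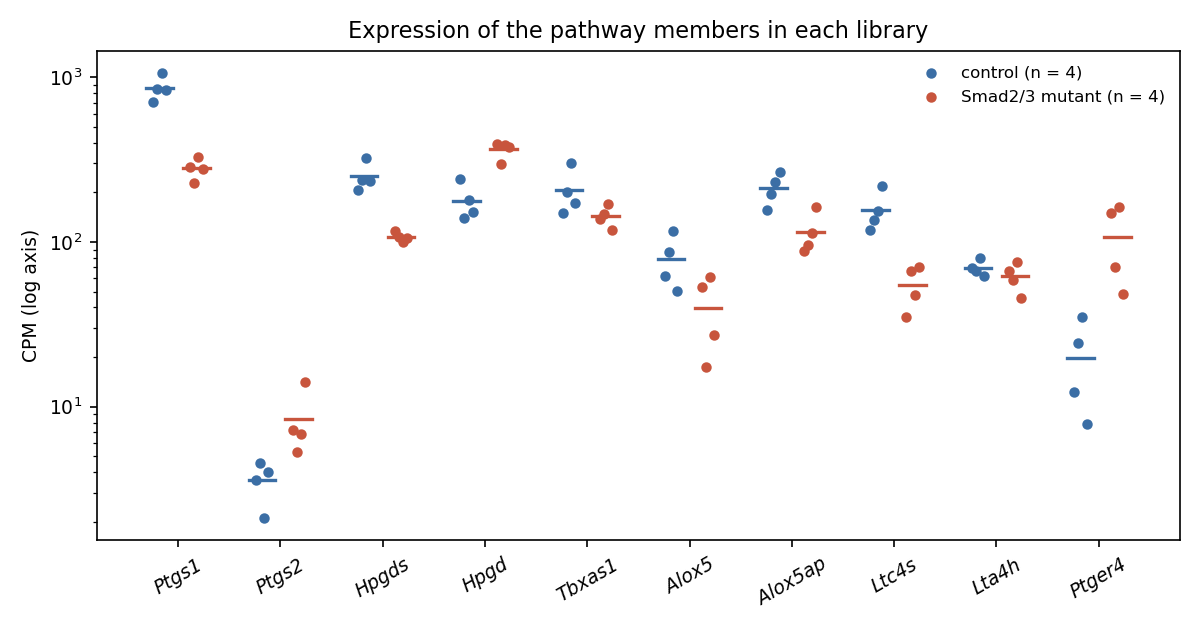
CPM (log axis) of each of the 10 genes in every library, with 4 control mice in blue, 4 mutant mice in red and a line at each group mean. All mutant points lie below all control points for *Ptgs1*, *Hpgds* and *Ltc4s*, and above them for *Ptgs2*, *Hpgd* and *Ptger4*.

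The promoters of the 5 genes with a call and no overlap between groups are shown because they passed the test without overlap and SMAD2 and SMAD3 act through DNA-binding complexes. Each runs from 250 bases before to 50 bases after the RefSeq transcription start on GRCm38.p6, 5′ to 3′ on the gene's strand, and capitals mark the SMAD-binding element CAGAC, read on either strand, and the PU.1 site GAGGAAGT. They lie at chr2:36230176-36230475 (plus strand) for *Ptgs1*, chr6:65144681-65144980 (minus) for *Hpgds*, chr11:50238483-50238782 (minus) for *Ltc4s*, chr8:56294302-56294601 (plus) for *Hpgd* and chr15:5244138-5244437 (minus) for *Ptger4*.
Ptgs1: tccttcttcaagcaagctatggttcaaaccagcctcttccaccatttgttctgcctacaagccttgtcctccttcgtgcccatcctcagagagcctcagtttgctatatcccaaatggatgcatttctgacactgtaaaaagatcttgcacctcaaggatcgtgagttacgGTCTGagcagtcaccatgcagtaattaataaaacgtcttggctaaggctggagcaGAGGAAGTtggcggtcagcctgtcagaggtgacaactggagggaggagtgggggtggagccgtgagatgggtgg
Hpgds: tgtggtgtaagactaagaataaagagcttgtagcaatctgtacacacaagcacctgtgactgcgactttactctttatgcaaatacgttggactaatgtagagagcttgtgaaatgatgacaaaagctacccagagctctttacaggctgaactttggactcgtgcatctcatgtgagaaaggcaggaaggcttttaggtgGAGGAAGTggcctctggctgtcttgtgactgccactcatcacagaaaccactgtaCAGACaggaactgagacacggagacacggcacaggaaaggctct
Ltc4s: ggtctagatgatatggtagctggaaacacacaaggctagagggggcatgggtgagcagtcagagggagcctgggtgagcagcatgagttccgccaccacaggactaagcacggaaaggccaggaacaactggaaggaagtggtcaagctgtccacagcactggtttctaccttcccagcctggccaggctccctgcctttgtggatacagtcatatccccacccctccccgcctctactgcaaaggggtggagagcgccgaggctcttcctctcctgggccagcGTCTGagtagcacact
Hpgd: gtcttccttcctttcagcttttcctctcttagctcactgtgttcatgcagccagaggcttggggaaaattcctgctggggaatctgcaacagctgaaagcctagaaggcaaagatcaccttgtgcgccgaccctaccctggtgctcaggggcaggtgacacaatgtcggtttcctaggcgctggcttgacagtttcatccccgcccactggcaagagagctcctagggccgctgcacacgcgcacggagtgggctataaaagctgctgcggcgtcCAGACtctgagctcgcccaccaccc
Ptger4: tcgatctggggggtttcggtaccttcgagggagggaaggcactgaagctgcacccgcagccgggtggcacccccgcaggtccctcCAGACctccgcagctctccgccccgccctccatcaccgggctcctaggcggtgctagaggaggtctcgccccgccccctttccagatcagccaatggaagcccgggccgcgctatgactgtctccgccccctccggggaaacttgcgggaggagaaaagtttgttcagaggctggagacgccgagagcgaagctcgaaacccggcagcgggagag

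A RefSeq promoter entry was found for 9 of the 10 genes, the exception being *Alox5ap*. CAGAC occurred on either strand in all 9 of these promoters and in 49.6% of 32817 mouse promoters of the same length. GAGGAAGT, a sequence bound by the myeloid factor PU.1, occurred in *Ptgs1* and *Hpgds*, 24 and 49 bases before the start, and in 3.2% of all promoters. The AP-1 site, TGA and TCA with any base between them, was found in *Tbxas1* and in 7.81% of promoters, and the cyclic AMP response element TGACGTCA in none of the 9 and in 1.79% of promoters. The motifs were searched on both strands and do not overlap one another in these sequences. A match shows the letters only and not binding by a factor.

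The cyclooxygenases catalyze the first step of prostanoid synthesis. *Ptgs1* (chromosome 2, 36230426 to 36252272, GRCm38) encodes the constitutive cyclooxygenase-1 and was at 706, 855, 1063 and 839 CPM in controls 1 to 4 and at 284, 229, 328 and 278 CPM in mutants 1 to 4. Every mutant lay far below every control. The mean fell from 866 ± 148 to 280 ± 40.2 CPM (SD, n = 4 each), which is 3.10-fold lower (log2 fold change -1.63, SE 0.18, 95% interval -2.04 to -1.22, adjusted p = 6.3e-04). Per exon length, *Ptgs1* had the highest mean of the 10 genes in controls.

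*Ptgs2* (chromosome 1, 150100031 to 150108227) encodes the inducible cyclooxygenase-2, an immediate early gene in many cells. Its level was low, at 3.59, 4.56, 2.10 and 3.98 CPM in controls and 7.25, 5.29, 6.82 and 14.2 CPM in mutants. The groups did not overlap, although control 2 and mutant 2 lay close together and mutant 4 stood above the others. The difference of 1.24 on the log2 scale (SE 0.39, interval 0.35 to 2.13) did not pass the edgeR test (adjusted p = 0.0743), and it passed with DESeq2 (adjusted p = 0.0184). A list of 15 genes known to respond to cell isolation, led by *Fos*, summed to 41426 to 89416 CPM in controls and 32672 to 65821 CPM in mutants. Control 3 had the highest sum of this list and the lowest *Ptgs2* level, whereas mutant 2 had the lowest of both among mutants. The sum rests on a few abundant genes, and of the 15 genes 3 rose, the cytokine genes *Il1b*, *Tnf* and *Ccl3* (6.25-fold, adjusted p = 0.0147; 2.31-fold, 0.00701; and 2.70-fold, 0.00306), while *Egr1* fell (adjusted p = 0.0134). The part of the isolation response in the *Ptgs2* values was not tested.

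*Hpgds* and *Tbxas1* encode synthases that use the same prostaglandin H for different products. *Hpgds* (chromosome 6, 65117293 to 65144908), the hematopoietic prostaglandin D synthase, was at 207, 238, 322 and 234 CPM in controls and at 117, 107, 99.9 and 106 CPM in mutants. The mutants were close to one another and all below the controls. It fell 2.33-fold, from 250 ± 49.6 to 108 ± 7.32 CPM (log2 fold change -1.22, SE 0.17, interval -1.59 to -0.85, adjusted p = 0.00174).

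*Tbxas1* (chromosome 6, 38875404 to 39084585), the thromboxane A synthase, was at 150, 202, 302 and 173 CPM in controls and at 137, 147, 170 and 119 CPM in mutants. Mutant 3 reached above control 1, so the groups overlapped. The difference of -0.53 (SE 0.23, interval -1.05 to -0.01) did not pass the test (adjusted p = 0.17). Within each library, the ratio of *Hpgds* to *Tbxas1* per kb of exon was 1.51 to 1.95 in controls and 0.831 to 1.26 in mutants, without overlap.

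*Hpgd* (chromosome 8, 56294585 to 56321043), whose enzyme starts prostaglandin breakdown, moved the opposite way to *Ptgs1* and *Hpgds*. It was at 242, 139, 180 and 152 CPM in controls and at 396, 299, 386 and 379 CPM in mutants. The lowest mutant exceeded the highest control. *Hpgd* rose 2.05-fold, from 178 ± 45.7 to 365 ± 44.4 CPM (log2 fold change 1.03, SE 0.20, interval 0.58 to 1.49, adjusted p = 0.0107). The per kb ratio of *Hpgds* to *Hpgd* had a median of 0.426 (0.224 to 0.468) in controls and 0.0754 (0.0678 to 0.0936) in mutants. It sets a prostaglandin D synthase over an enzyme that inactivates prostaglandin E, so it is not a balance of 1 product.

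In the leukotriene branch, *Alox5ap* and *Ltc4s* fell and *Alox5* and *Lta4h* did not pass the test, and the difference between these genes was not tested. *Alox5* (chromosome 6, 116410077 to 116461178), the 5-lipoxygenase, was at 61.9, 87.2, 116 and 50.2 CPM in controls and at 53.6, 17.3, 61.0 and 27.2 CPM in mutants. Mutants 1 and 3 lay within the control range and mutants 2 and 4 below it. The difference of -0.99 had a wide interval (SE 0.42, -1.93 to -0.04, adjusted p = 0.157).

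*Alox5ap* (chromosome 5, 149264767 to 149288153) encodes the activating protein that presents arachidonic acid to 5-lipoxygenase. It was at 157, 196, 233 and 268 CPM in controls and at 87.6, 96.5, 114 and 164 CPM in mutants. Mutant 4 was above control 1, and the other mutants were below all controls. It fell by 0.88 on the log2 scale (SE 0.24, interval -1.43 to -0.34, adjusted p = 0.0446). The call was lost in 6 of the 8 fits that left out a mouse, those without control 2, 3 or 4 or mutant 1, 2 or 3, with an adjusted p of up to 0.118.

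*Ltc4s* (chromosome 11, 50236461 to 50238616), the leukotriene C synthase that starts the cysteinyl leukotriene arm, is a membrane protein of the same family as the activating protein. It was at 118, 136, 155 and 218 CPM in controls and at 35.1, 66.8, 47.4 and 70.0 CPM in mutants, with no overlap. The mean fell 2.86-fold, from 157 ± 43.5 to 54.8 ± 16.5 CPM (log2 fold change -1.52, SE 0.27, interval -2.13 to -0.90, adjusted p = 0.00732). Of its exon bases, 26.4% are also covered by *Gm26542* on the opposite strand, and reads of an overlap cannot be assigned in unstranded libraries. *Gm26542* itself had 72 to 170 counts in controls and 40 to 133 in mutants.

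*Lta4h* (chromosome 10, 93453411 to 93484875) encodes the hydrolase that forms leukotriene B from the same substrate. It was at 69.6, 67.1, 79.6 and 61.7 CPM in controls and at 66.3, 59.0, 75.8 and 45.9 CPM in mutants. Mutants 1 and 3 lay within the control range and mutants 2 and 4 below it. The difference was -0.17 (SE 0.18, interval -0.58 to 0.23, adjusted p = 0.586). The per kb ratio of *Ltc4s* to *Lta4h*, the 2 enzymes at the branch point, was 10.2 to 21.3 in controls and 3.19 to 9.18 in mutants, without overlap.

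*Ptger4* (chromosome 15, 5206661 to 5244187), the prostaglandin E receptor EP4, showed the largest fold change of the 10 genes. It was at 12.2, 24.2, 34.8 and 7.85 CPM in controls and at 149, 70.9, 162 and 48.4 CPM in mutants. All mutants were above all controls, but mutants 1 and 3 stood above mutants 2 and 4 and the controls also varied widely. *Ptger4* rose 5.44-fold, from 19.8 ± 12.2 to 108 ± 56.3 CPM (log2 fold change 2.44, SE 0.54, interval 1.21 to 3.67, adjusted p = 0.0198). Without control 2 the adjusted p was 0.0503. Exons of *Ttc33* and *Gm15937* on the opposite strand cover 16.5% of its exon bases, and *Ttc33* had 899 to 1296 counts in controls and 775 to 1301 in mutants.

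**Figure D2:**
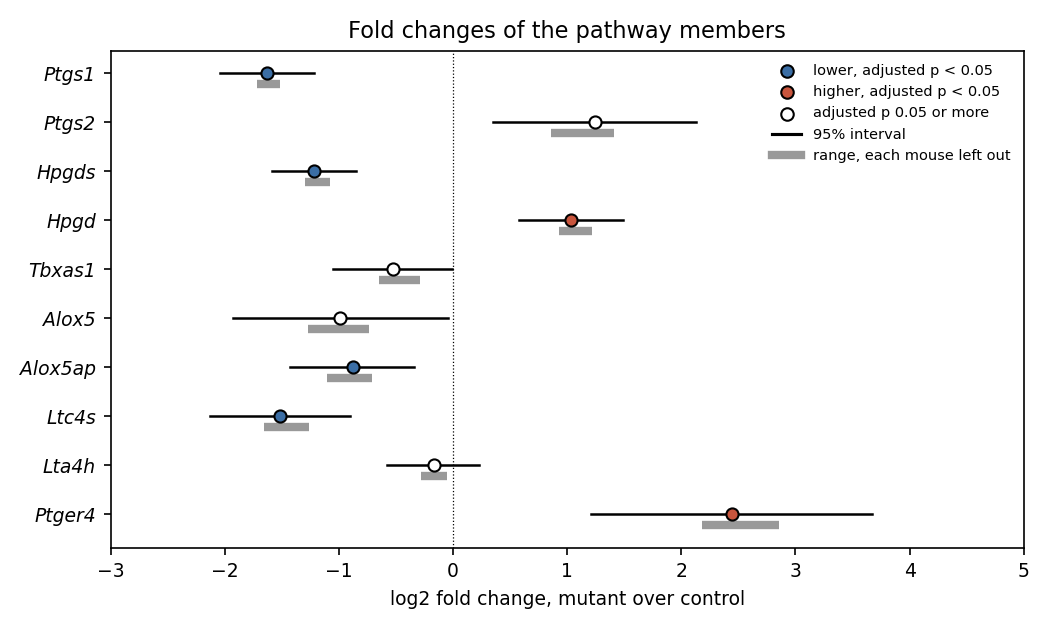
Log2 fold change, mutant over control, of the 10 genes with the 95% interval (black line) and the range when each of the 8 mice was left out in turn (grey bar), where filled points passed the test. *Ptger4* and *Alox5* had the widest intervals (1.21 to 3.67 and -1.93 to -0.04), and no grey bar crosses zero.

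Per kb of exon, the control order was led by *Ptgs1* at 223, *Ltc4s* at 155, *Alox5ap* at 150 and *Hpgd* at 106 CPM per kb. The length is that of all annotated exons of a gene merged, which can exceed the transcript present. The order between genes is therefore approximate and depends on the annotation. Neighbours in this leading set overlapped between libraries, and all 4 genes lay above *Hpgds* at 39.0, *Tbxas1* at 22.7, *Alox5* at 19.2 and *Lta4h* at 11.4 CPM per kb. *Ptger4* at 2.97 and *Ptgs2* at 0.777 CPM per kb followed, each without overlap with the gene above it.

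In mutants, *Hpgd* came first at 217 CPM per kb and did not overlap with the next gene. *Alox5ap* at 81.4, *Ptgs1* at 72.0 and *Ltc4s* at 54.0 CPM per kb followed and overlapped as neighbours. *Ptger4* at 16.2 CPM per kb then came between *Hpgds* at 16.7 and *Tbxas1* at 15.8, overlapping with both. *Lta4h* at 10.1 and *Alox5* at 9.69 overlapped, and *Ptgs2* was last in both groups, at 1.83 CPM per kb in mutants.

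**Figure D3:**
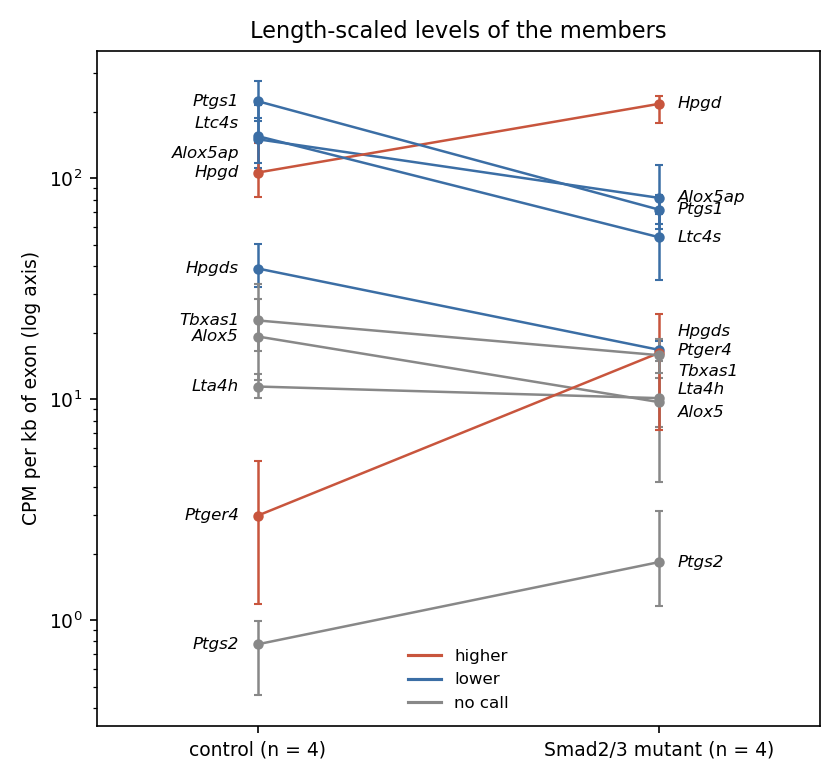
Mean CPM per kb of exon (log axis) in controls and mutants, with bars from the lowest to the highest of 4 libraries and colour giving the call. *Hpgd* moved from the fourth place in controls to the first in mutants, and *Ptger4* went from 2.97 to 16.2 CPM per kb.

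The within-library balance of the cyclooxygenases did not overlap between groups. That follows from the single genes, since *Ptgs1* was lower and *Ptgs2*, which had no call, was higher in every mutant. *Ptgs1* exceeded *Ptgs2* per kb by 221-fold to 598-fold in controls and by 23.1-fold to 56.6-fold in mutants. The ratio of *Ptgs1* to *Hpgds* was nearly constant in controls, 5.47 to 5.94, and was 3.54 to 5.43 in mutants. In contrast, the ratio of *Alox5ap* to *Alox5* overlapped widely, at 5.80 to 15.4 in controls and 4.73 to 17.4 in mutants. These ratios are descriptions and were not tested.

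Among controls, *Ptgs1*, *Hpgds* and *Tbxas1* ranked the 4 mice in the same order, with control 3 highest and control 1 lowest. *Alox5ap* and *Ltc4s* shared a different order, with control 4 highest, and mutant 4 was the highest mutant for both. *Alox5* and *Ptger4* shared the order control 3, 2, 1 and 4, and both were highest in mutants 3 and 1, although *Ptger4* rose in mutants and the *Alox5* difference was -0.99 without a call. Control 3 held the highest control value for 6 of the 10 genes and also had the highest summed microglial markers. The points of such an order share a library and its composition.

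Marker lists of other cells that could carry these transcripts were examined beside them. Mast cell and basophil markers, relevant to *Hpgds* and *Ltc4s*, summed to 0.377 to 19.8 CPM in controls and 1.33 to 27.2 CPM in mutants, with 0 of 5 tested called and *Mcpt4* and *Tpsb2* at 0 in over 4 libraries. Platelet markers, relevant to *Ptgs1*, *Tbxas1* and *Ptgs2*, summed to 55.7 to 118 CPM in controls and 6.85 to 14.0 CPM in mutants, and 2 of 6 tested fell. These were *Gp9* and *Itgb3*, which made up most of the sum in controls, and the other 4 had no call. *Itga2b* was at 2.91 to 10.4 CPM in controls and 2.34 to 6.20 CPM in mutants (adjusted p = 0.877). *Gp1ba* was at 1.45 CPM or less and *Ppbp* at 2.47 CPM or less in every library, and *Gp6* was at 0 in over 4. Neutrophil markers, relevant to *Alox5*, *Alox5ap* and *Lta4h*, summed to 427 to 1779 CPM in controls and 260 to 768 CPM in mutants, with 1 of 8 lower. Monocyte markers summed to 262 to 551 CPM and 197 to 367 CPM with 0 of 8 called. Lymphocyte markers, relevant to *Ptger4*, summed to 26.1 to 63.6 CPM in controls and 76.0 to 160 CPM in mutants, and 3 of 8 rose. Oligodendrocyte markers summed to 732 to 4574 CPM in controls and 1193 to 3873 CPM in mutants, with 0 of 8 called. Neuron markers summed to 66.7 to 715 CPM and 192 to 608 CPM, with 0 of 8 called. In both lists control 1 and mutant 1 had the highest sum of their group. Astrocyte markers summed to 1486 to 2518 CPM and 413 to 1404 CPM, with 1 of 8 lower (*Slc1a3*). Endothelial and mural markers summed to 24.4 to 44.5 CPM and 10.6 to 22.9 CPM, with 1 of 6 tested lower. The part of all these cells in the results for the pathway genes was not tested.

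The remaining genes of the pathway were examined from a list of 61, of which 47 could be tested. Of these, 4 were higher and 9 lower in mutants, or 27.7% with a call against 12.3% of all tested genes, and their median log2 fold change was -0.10. This list was also chosen with earlier results of these data known, so its share is a description. By role, arachidonate release held 8 of the 13 calls. No call was made among 8 prostanoid synthases, 4 genes of prostanoid transport and breakdown and 3 other lipoxygenases. With so few genes, 0 calls are not set apart from the 12.3% of all tested genes.

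Among the 13 tested genes of arachidonate release, 7 fell and 1 rose, with a median of -0.88. *Daglb*, a diacylglycerol lipase on the path to the arachidonate-containing endocannabinoid that later lipases cut, was at 407, 540, 625 and 425 CPM in controls and at 111, 79.0, 113 and 76.2 CPM in mutants. The groups lay far apart, and *Daglb* fell 5.26-fold (log2 fold change -2.40, SE 0.22, adjusted p = 0.00022). Exons of *Rac1* on the opposite strand cover 24.1% of its exon bases, and *Rac1* had 14928 to 17673 counts in controls and 11751 to 13317 in mutants. Its paralog *Dagla* was far lower, at 7.45 to 19.3 CPM in controls and 1.56 to 5.33 CPM in mutants, and fell by 1.87 on the log2 scale (adjusted p = 0.0217). The *Dagla* call was lost without control 3, control 4 or mutant 2, with an adjusted p of up to 0.0628.

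*Abhd12*, *Abhd6* and *Mgll* encode hydrolases of monoacylglycerol or related lipids. *Abhd12*, which had the highest CPM of this role averaged over all 8 libraries, was at 924 to 1626 CPM in controls and 469 to 612 CPM in mutants and fell 2.30-fold (adjusted p = 0.0048). *Abhd6* fell from 71.6 ± 17.5 to 38.9 ± 5.30 CPM (adjusted p = 0.0236), and its call was lost in 5 of the 8 fits that left out a mouse. *Mgll* fell from 119 ± 40.3 to 63.0 ± 11.8 CPM (adjusted p = 0.0433), and its call was lost in all 8 of those fits.

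Of the phospholipases, 2 fell and 1 rose. *Pla2g4a*, the cytosolic phospholipase A that supplies arachidonic acid to both branches, was at 35.7, 51.9, 69.6 and 40.0 CPM in controls and at 31.3, 18.4, 25.8 and 24.9 CPM in mutants. It fell by 0.98 on the log2 scale without overlap (SE 0.25, adjusted p = 0.036), and the call was lost in 5 of the 8 fits that left out a mouse. *Pla2g15*, a lysosomal phospholipase, fell from 672 ± 148 to 348 ± 68.2 CPM (adjusted p = 0.0186), and without mutant 4 the adjusted p was 0.0505. *Pla2g7* went the other way, at 96.7, 78.9, 45.9 and 29.3 CPM in controls and 1258, 725, 1494 and 1239 CPM in mutants, and rose 18.8-fold (log2 fold change 4.23, SE 0.42, adjusted p = 0.00037). *Pla2g7* encodes the acetylhydrolase of platelet-activating factor and oxidized phospholipids, which is not a main source of arachidonic acid. Of its exon bases, 11.0% are also covered by *1700071M16Rik* on the opposite strand.

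**Figure D4:**
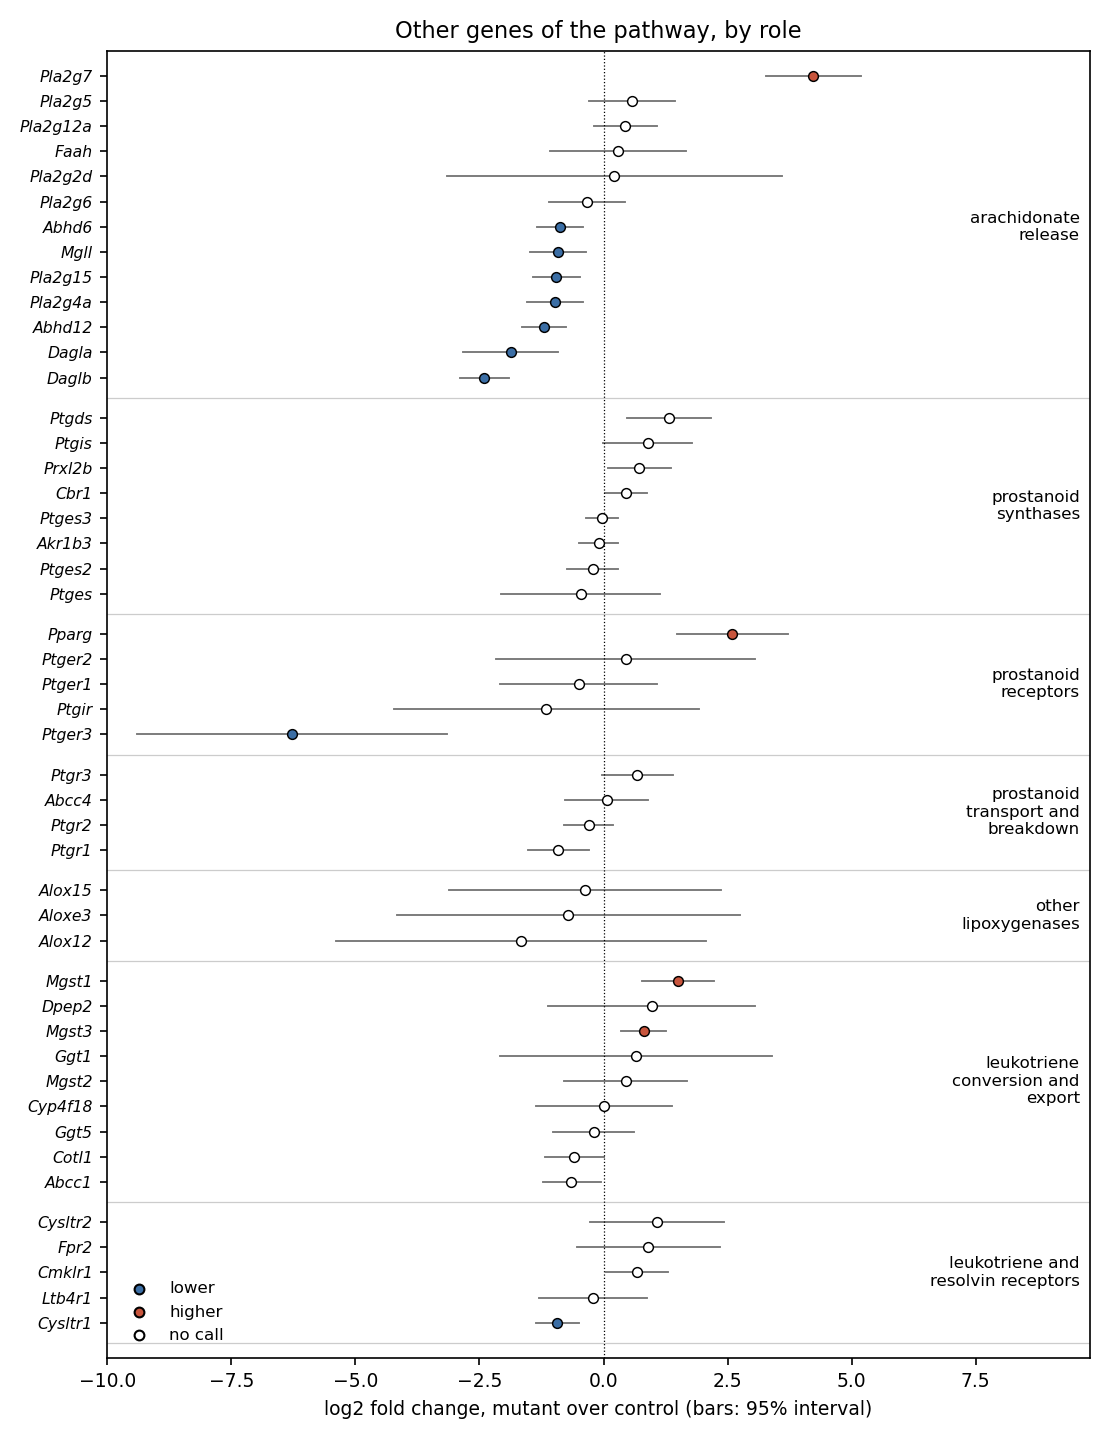
Log2 fold change, mutant over control, of the 47 other tested pathway genes with 95% intervals, grouped by role, where filled points passed the test. In arachidonate release 8 of 13 points are filled, and *Pla2g7* (4.23) and *Ptger3* (-6.28) lie farthest from zero.

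The 8 prostanoid synthases had a median of 0.22 and none passed the test. The highest of them, *Ptgds*, encodes the lipocalin-type synthase that makes the same prostaglandin D as *Hpgds*. It was at 290, 259, 136 and 329 CPM in controls and at 460, 1043, 364 and 665 CPM in mutants, without overlap (log2 fold change 1.32, SE 0.37, adjusted p = 0.0505). *Ptgds* is abundant in leptomeninges and choroid plexus, and markers of these tissues, nearly all from *Ttr*, summed to 7275 to 25030 CPM in controls and 25403 to 42139 CPM in mutants, with 0 of 6 tested called and *Ttr* at an adjusted p of 0.0903. This sum and *Ptgds* ranked the 4 controls in the same order, from control 3 as the lowest to control 4. Among mutants, mutant 2 was the highest in both. Mutant 1 had the lowest sum, but mutant 3 had the lowest *Ptgds*. The part of these cells was not tested.

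Of 5 tested prostanoid receptors, 1 rose and 1 fell. *Ptger3*, the prostaglandin E receptor EP3, which couples to inhibitory G proteins whereas EP4 couples to stimulatory ones, was at 19.0, 34.3, 46.7 and 38.1 CPM in controls. In mutants it was at 1.77 CPM in mutant 1 and at 0 in the other 3. It fell 77.9-fold over all libraries (log2 fold change -6.28, SE 1.39, interval -9.41 to -3.15, adjusted p = 0.0187). With mutant 1 left out, the only mutant with counts, *Ptger3* was at least 1362-fold lower than the control mean. That bound takes 3 counts over the 3 mutant libraries as the floor for counting error. It describes those 3 mice, which were set apart by their counts, and is not a bound for the mutant group. Without control 3 the adjusted p was 0.0525.

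*Pparg*, a nuclear receptor that prostaglandin D metabolites can activate, rose from 0.565 to 1.98 CPM in controls to 3.96 to 10.4 CPM in mutants (log2 fold change 2.59, SE 0.49, adjusted p = 0.00974). *Ptgr2*, taken for prostanoid transport and breakdown by its mean CPM over all 8 libraries, was at 26.1 to 43.1 CPM in controls and 22.3 to 34.8 CPM in mutants (adjusted p = 0.417), and *Gm47484* on the opposite strand covers 32.0% of its exon bases. In the same role *Ptgr1* was at 10.8 to 16.9 CPM in controls and 5.77 to 10.4 CPM in mutants, without overlap. It had no call (log2 fold change -0.91, SE 0.27, adjusted p = 0.0609). *Alox15*, the highest of the other lipoxygenases, was at 4.22 to 19.9 CPM and 0 to 20.6 CPM (adjusted p = 0.878).

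Among 9 genes of leukotriene conversion and export, 2 rose. *Mgst1* and *Mgst3* encode microsomal glutathione transferases of the same protein family as *Ltc4s* and *Alox5ap*. *Mgst1* was at 26.9, 31.9, 13.5 and 19.6 CPM in controls and at 41.8, 61.0, 62.8 and 94.3 CPM in mutants and rose 2.83-fold (log2 fold change 1.50, SE 0.32, adjusted p = 0.0168). *Mgst3* rose 1.75-fold, from 28.7 ± 5.51 to 50.2 ± 9.50 CPM (adjusted p = 0.0296), and that call was lost in 4 of the 8 fits that left out a mouse. *Cotl1*, whose product binds 5-lipoxygenase and which had the highest level of this role, was at 172 to 319 CPM in controls and 99.1 to 192 CPM in mutants (adjusted p = 0.175).

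Of 5 leukotriene and resolvin receptors, 1 fell. *Cysltr1*, a receptor for the cysteinyl leukotrienes whose synthesis starts with *Ltc4s*, was at 66.0, 68.1, 99.7 and 76.5 CPM in controls and at 35.2, 34.3, 43.7 and 49.1 CPM in mutants. All mutants were below all controls, with a 1.91-fold lower level (log2 fold change -0.94, SE 0.19, adjusted p = 0.0137). *Cysltr1* lies on the X chromosome, and genotype and sex cannot be told apart in these mice.

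**Figure D5:**
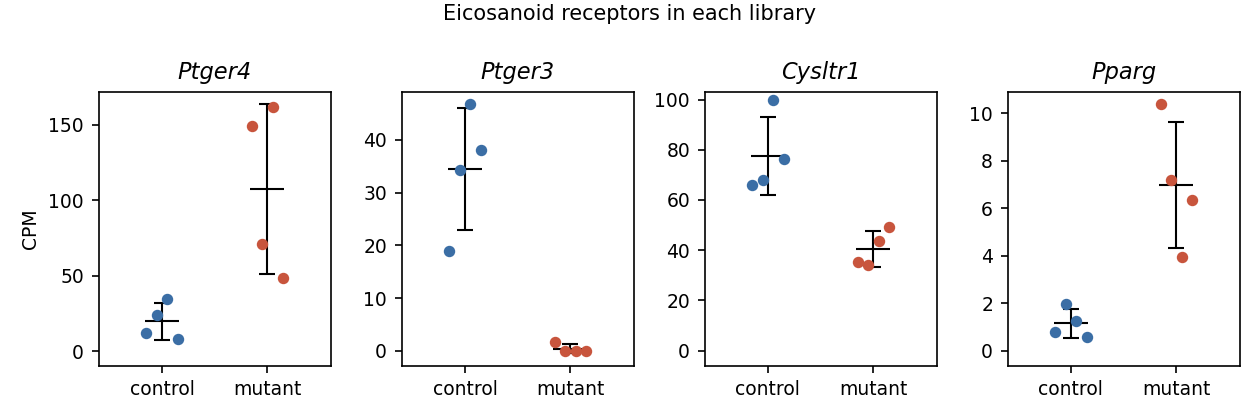
CPM of *Ptger4*, *Ptger3*, *Cysltr1* and *Pparg* in each library, with points for single mice (4 per group) and black bars for the mean and SD. *Ptger4* and *Pparg* were higher and *Ptger3* and *Cysltr1* lower in every mutant than in any control, with *Ptger3* at 0 in 3 mutants.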

How the data were processed

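RNA from sorted P60 microglia was sequenced in 4 mutant and 4 control mice. Per the labels, libraries were unstranded and single-end from a Nextera XT kit, whereas the study's methods describe polyA-selected paired-end libraries. The authors used Rsubread (genome mm10) and featureCounts and deposited raw counts per gene, not normalized; their versions and annotation are not given in the sources used here. A deposited table of the authors' DESeq2 comparison (submitters' notes: version 1.28) holds fold changes and p-values and was not used.

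From the counts, edgeR 4.0.16 (R 4.3.3) was run with TMM scaling, estimateDisp, glmQLFit and glmQLFTest without a block. A gene was tested if 4 or more of the 8 libraries held 10 counts or more. Calls were made at a Benjamini-Hochberg adjusted p under 0.05. SE was taken as the fold change over the root of F. The scripts were tested on simulated data. The biological coefficient of variation, common to all tested genes, was 0.542. With 1 library per mouse, variation between mice, sorts and library preparations cannot be told apart in it. Replicates are separate mice. Exon lengths and positions are those of GENCODE M21 on GRCm38, and a gene's length is that of the merged exons of all its transcripts.

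The members and gene lists were chosen with earlier results of these data known. Named were all 10 members, each other pathway gene with a call, the gene of each role with the highest CPM averaged over the 8 libraries, and up to 3 leading genes per marker list. Further markers were named after their values were seen, to show what a list's sum rests on. *Ptgr1* was also named after its values were seen, for its lack of overlap. Alternatives were DESeq2 1.42.0, RLE size factors, library totals, no filter, a filter of 10 counts in each library, a block by replicate number, and fits without each mouse in turn over the same tested genes. The floor of 3 counts covers counting error only, since the reads carry no molecular identifiers.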

Additional observations from a re-analysis of the deposited data

Results flagged for a closer look

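*Pla2g15* was at 891 CPM in control 3 and at 582 to 630 CPM in the other controls, a gap of 0.846 of the group's range. *Ptger3* was at 1.77 CPM in mutant 1 and at 0 in the other 3 mutants, a gap of 1 of the range. With the other 3 at 0, any count in mutant 1 would give that gap. These were the samples standing apart from their group among 46 groups of 4 examined by Dixon's test, and chance flags about 1 in 20 groups.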

How the results depend on the processing

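*Ptgs1*, *Hpgds*, *Hpgd* and *Ltc4s* kept their calls in all 8 fits that left out a mouse and all 6 other alternatives, and *Ptger4* in all but the fit without control 2. *Alox5ap* was not called with RLE size factors, library totals or no filter, and *Ptgs2* was called only with DESeq2. No member changed direction in any of the 14 fits. The number of members called was 5 to 7 under the 6 alternatives and 4 to 6 with a mouse left out. For the other pathway genes it was 12 to 16 and 7 to 14, the lowest without control 3. Over all tested genes, DESeq2 called 4281 instead of 2485 (44.5% higher in mutants instead of 35.3%), and leaving out a mouse gave 1567 to 2499, with 1572 without control 2 and 1567 without control 3. The cause was not tested. Library totals moved the median log2 fold change of all genes to 0.130, and no member changed direction. The replicate numbers were not taken as pairs: same-numbered mice correlated at 0.018 to 0.166 in their deviations, and 3 of 4 mutants correlated best with their own number. With the replicate block 2383 genes were called, 6 members (the same direction) and 12 other pathway genes, where *Pla2g4a* (adjusted p = 0.0702) and *Mgst3* (0.0514) were not called and *Ptgds* was (0.027). *Mgll* was also not called with library totals. Depth does not limit the members, but at 2.10 to 14.2 CPM *Ptgs2* is the least precise by counting.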
